A study of Humulus lupulus with 6 samples.

Results

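The 155 most abundant loci of the hop cultivar Cascade (Humulus lupulus) in its leaf, stem and apical meristem are described. A locus is a stretch of one strand on which the gene models of the 3 tissues share at least 1 exonic base. A locus was included when it had a model in all 3 tissues and reached 1000 CPM in at least 1 of them. CPM (counts per 1000000) divides the fragments counted at a locus by all those of the tissue, with no further scaling. Of 67811 loci, 33811 had a model in all tissues and 155 of these (0.458%) reached the limit. No locus lacking a model in some tissue reached it (0 loci). The levels chose the loci, so the levels and the differences between tissues given here describe them and were not tested.

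All plants were grown under glass with sprays against insects and fungi and without any other treatment. Young leaves, actively growing stems and apical meristems, the dividing tips of shoots, were taken and frozen. The labels give 2 samples per tissue, while the protocols speak of 1 TruSeq library per tissue, and 1 column of counts per tissue was analysed. No error between plants could therefore be estimated, and tissue, library and sequencing lane cannot be told apart. The columns held 162799212 fragments for leaf, 135877224 for meristem and 125454712 for stem, so that 1000 CPM stands for 162799, 135877 and 125455 fragments. Counting error was small at this depth. The lowest count at any of the 155 loci was 517 fragments (exact Poisson 95% interval 473.4 to 563.5), in stem. Intervals cover counting error only.

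In plants a few nuclear genes supply a large part of the messenger RNA. In leaves these are typically genes of photosynthesis, such as those for the small subunit of Rubisco, the enzyme that fixes carbon dioxide, and for the chlorophyll-binding proteins of the light-harvesting complexes, and small gene families often encode them. In dividing and growing tissue, genes for translation factors, ribosomal proteins, histones, cytoskeleton and cell wall are commonly abundant. Because CPM divides by the total, a few very abundant RNAs lower the CPM of all others in the same tissue. The deposited numbers of the models carry no gene names (0 matched the RefSeq gene table of hop), so which genes the 155 loci hold was not determined, the tissues could not be checked against marker genes, and loci are named by contig and position on the authors' Cascade assembly.

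In leaf, 28.29% of the counted fragments came from the 155 loci (exact binomial 95% interval 28.28 to 28.3), against 12.1% in meristem (12.09 to 12.11) and 13.17% in stem (13.16 to 13.17). Leaf had by far the highest share. The limit of 1000 CPM was reached at 86 loci in leaf, 56 in stem and 53 in meristem. The loci that reached it in a given tissue took 25.6% of leaf, 8.87% of meristem and 10.3% of stem. Within the 155 loci, leaf fragments were only somewhat more unevenly spread than those of the other tissues. The 5 most abundant loci of leaf held 24.69% of what the 155 took, against 19.86% for meristem and 20.23% for stem. As shares of all counted fragments these were 6.99%, 2.40% and 2.66%. To reach 50% of what the 155 took, leaf needed 21 loci, stem 26 and meristem 29.

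**Figure D1:**
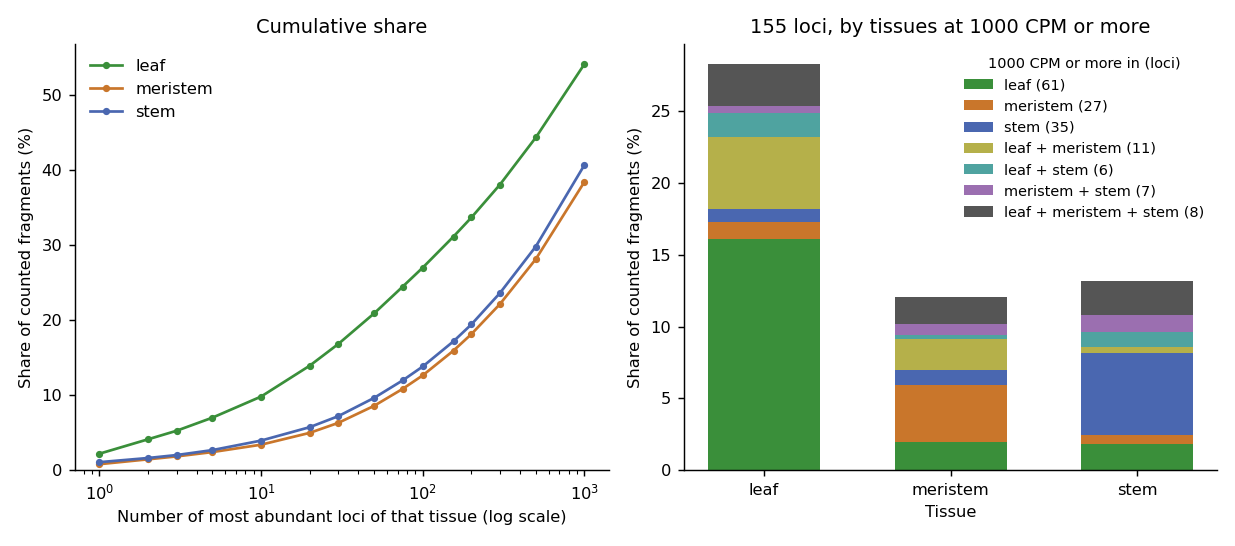
Left, cumulative share of counted fragments (percent) against the number of most abundant loci of each tissue (log scale). The curve of leaf lies above the others throughout, at 26.97% for 100 loci against 12.62% in meristem and 13.8% in stem. Right, share of fragments taken by the 155 loci in each tissue, split by the tissues in which a locus reached 1000 CPM.

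Few loci were this abundant in more than 1 tissue. The limit was reached in a single tissue at 123 loci (79.4%), in 2 tissues at 24 (15.5%) and in all 3 at 8 (5.16%). Of the single-tissue loci, 61 reached it in leaf, 35 in stem and 27 in meristem. Among pairs, 11 loci reached the limit in leaf and meristem, 6 in leaf and stem and 7 in meristem and stem. The 61 leaf loci took 16.1% of leaf fragments, and 1.95% of meristem and 1.79% of stem fragments. The 35 stem loci took 5.68% of stem, against 0.888% of leaf and 1.03% of meristem, and the 27 meristem loci took 4.01% of meristem, against 1.23% of leaf and 0.658% of stem. Loci of 1 tissue differed in how low they were in the others. Of the 61 leaf loci, 5 lay below 100 CPM in meristem and 14 in stem. Of the 35 stem loci, 9 lay below it in leaf and 7 in meristem. Among the 27 meristem loci, 5 lay below it in leaf and 13 in stem. Over the 155 loci, 14 lay below 100 CPM in leaf, 27 in stem and 12 in meristem, and below 10 CPM there were 3, 8 and 0.

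The highest leaf levels stood far above those of the other tissues. First was contig 000046F, where a locus of 3 exons at 635916 to 637000 (plus strand) had 21819.6 CPM in leaf, where it ranked 1, against 926.2 in meristem, where it ranked 61, and 500.8 in stem, where it ranked 175. Its leaf model is short, with exons of 196, 135 and 363 bases, and per kb of model its leaf level was 31440, the highest of the 155 loci. Next came 2 loci on contig 001375F, at 562017 to 563108 (plus strand) and at 494805 to 495886 (minus strand). Both have a single exon, of 1037 and 1082 bases in leaf, and they lie 66.1 kb apart. The first had 19222.1 CPM in leaf against 1089 in meristem and 291.0 in stem. The second had 11338.5, 1296 and 1207 CPM, and thus reached the limit in every tissue. The loci of leaf ranks 4 and 5 were on contig 001329F at 492118 to 494620 and on contig 002397F at 15204 to 17615, both on the minus strand with 4 exons. They had 9526 and 7941 CPM in leaf, 1200 and 1094 in meristem and 519.0 and 488.3 in stem, so the order of the tissues was the same at both. A model on the other strand overlaps each of them, with 0 fragments counted in leaf at either. A locus without a model in leaf also counts as 0 here, so the 0 may mean no model.

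The most abundant meristem loci differed in how far other tissues shared them. The locus at 312436 to 315749 of contig 003132F (plus strand) had 7894 CPM in meristem, 1613 in leaf and 130.2 in stem. Its 7 exons in meristem measured 354, 96, 449, 95, 131, 459 and 895 bases. It is overlapped by 2 loci on the other strand with 0 fragments counted in meristem, which may mean that they had no meristem model. The locus at 1715676 to 1718329 of contig 000113F (plus strand, 4 exons) was the second most abundant in meristem at 6473 CPM, the third in stem at 3912 and the tenth in leaf at 4651. That at 798916 to 800958 of contig 000625F (plus strand, 5 exons) had 3858 CPM in meristem, 1653 in leaf and 1570 in stem. The other 2 of the 5 highest had far lower levels in leaf and stem than in meristem. At 482516 to 483403 of contig 002921F (plus strand, 2 exons) the level was 3158 CPM in meristem, 275.4 in leaf and 14.5 in stem, with models of 709, 502 and 475 bases. The single-exon locus at 108863 to 109566 of contig 005789F (minus strand, 593 bases in meristem) had 2651, 42.0 and 14.1 CPM in the same order.

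Stem was led by contig 005160F, where the locus at 160597 to 162779 (plus strand) had 10563.2 CPM in stem, 2021 in leaf and 1751 in meristem. Its model had 2 exons in stem and leaf and 1 in meristem. The next, on contig 002581F between 56190 and 209406 (minus strand), had 5550.03 CPM in stem but 66.1 in meristem and 19.5 in leaf. Its stem model joins exons of 713, 313 and 295 bases over introns of 110220 and 41676 bases, while leaf and meristem have 3 models each at this locus, and the most counted of them has 1 exon. After the locus on contig 000113F came contig 005266F, where a locus with 16 exons at 226711 to 234672 (minus strand) had 3550 CPM in stem, 437.8 in meristem and 365.9 in leaf. Rank 5, at 746941 to 748948 of contig 000478F (plus strand), reached the limit in stem and meristem but not in leaf, with 3068 CPM in stem, 1033 in meristem and 904.8 in leaf. The single-exon locus with the highest stem level, at 33539 to 34329 of contig 010291F (minus strand), had 1790 CPM in stem, 15.3 in meristem and 7.67 in leaf. Its model was shorter outside stem, with 459 bases in meristem and 450 in leaf against 791.

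The 8 loci at 1000 CPM or more in all tissues took 2.88% of leaf, 1.93% of meristem and 2.36% of stem fragments. They include the leading stem locus, the third of leaf and the loci on contigs 000113F and 000625F. The remaining 4 lay on contig 002923F at 200188 to 201406, contig 001418F at 257528 to 260244, contig 000382F at 29269 to 31812 and contig 000185F at 408117 to 410578. That on 002923F was highest in leaf, at 5101 CPM against 1278 in meristem and 1195 in stem. The others were less far apart, between 1589 and 1989 CPM on 001418F, between 1054 and 1896 on 000382F and between 1216 and 1395 on 000185F. After scaling by TMM factors, which estimate the relative size of libraries from the bulk of loci, 12 of the 155 loci varied by less than 2-fold over the tissues. The closest, at 151510 to 176709 of contig 002718F (minus strand, 5 exons), had 1117, 1090 and 1066 scaled CPM in leaf, meristem and stem. These loci and the last 4 of the 8 were picked after their values were seen.

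**Figure D2:**
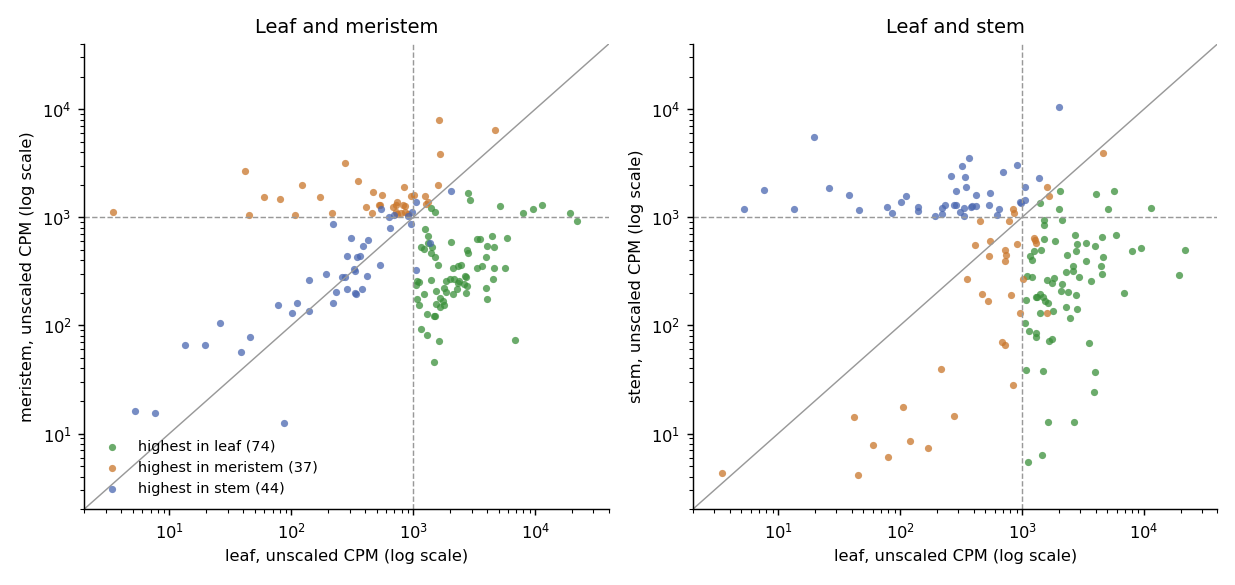
Unscaled CPM of the 155 loci in leaf (x axis, log scale) and in meristem (left) or stem (right, both y axes log scale), coloured by the tissue of the highest level (74 leaf, 37 meristem, 44 stem). Dashed lines mark 1000 CPM and the diagonal marks equal CPM. Loci highest in leaf lie mostly far below the diagonal, and leaf levels span from 3.46 to 21819.6 CPM.

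The level in one tissue told little of that in another among these loci. Pearson's r and Spearman's rho of log2 CPM over the 155 loci were 0.23 and 0.03 between leaf and meristem, 0.01 and -0.19 between leaf and stem, and -0.07 and -0.03 between stem and meristem. The rule, which needs a high level in 1 tissue only, shapes these values, and loci are not independent replicates. Scaled levels in the highest tissue exceeded those in the lowest by a median of 11.1-fold, from 1.05-fold to 343-fold, and by 100-fold or more at 18 loci. For the 74 loci highest in leaf by unscaled CPM, the scaled level in leaf was a median of 10.25 times that of the next tissue. The same median was 3.405 for the 44 loci highest in stem and 1.467 for the 37 highest in meristem. Scaling raises leaf levels and lowers the others, so it raises ratios of leaf over other tissues and lowers the reverse. Some loci therefore change their highest tissue. At contig 000113F, highest in meristem by unscaled CPM, the scaled level was 6126 in leaf and 5538 in meristem.

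A difference was counted where the scaled level was at least 4-fold higher and the higher tissue had 10 scaled CPM or more. Of the 155 loci, 67 (43.2%) were higher in leaf than in meristem, where 10.8% of all 16201 loci compared were, and 10 (6.45%) were higher in meristem, where 6.36% of all were. Against stem, 154 of the 155 loci could be compared, and 81 (52.6%) were higher in leaf, with 18.0% over all 16528 loci, and 18 (11.7%) higher in stem, with 10.4% over all. Between stem and meristem, 32 (20.6%) were higher in stem and 30 (19.4%) in meristem, with 9.63% and 12.9% over all 16370 loci. The median log2 difference of the 155 loci was 1.3 for leaf minus meristem and 2.20 for leaf minus stem, against 0.08 over all loci in both, and -0.04 for stem minus meristem against 0.05. Since the loci were chosen for their levels in these same columns, nothing is read from these shares. The 67 loci made up 3.82% of the loci higher in leaf than in meristem and held 57.8% of the leaf fragments of those loci. For leaf over stem the figures were 2.72% of the loci and 49.0% of the fragments. Large shares of fragments follow in part from the choice of loci by level.

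The largest scaled differences were found at loci with low levels in at least 1 other tissue. At 116173 to 118892 of contig 002603F (plus strand, with 7 exons in the meristem model) meristem had 151282 fragments, leaf 564 and stem 540, a scaled level 209-fold over leaf and 249-fold over stem. On contig 000592F, between 464744 and 577793 (minus strand), 238934 fragments in leaf stood against 6283 in meristem and 796 in stem, a 343-fold difference between leaf and stem. The models of this locus differ, with 2 exons over an intron of 112.2 kb in leaf and meristem and 1 exon in stem. Per base of model, the log2 difference of leaf minus stem was 9.53, against 8.42. Contig 000004F carries at 3948739 to 3952268 (plus strand) a locus of 10 exons with 1111798 leaf, 9903 meristem and 25194 stem fragments, and its scaled level was 144-fold higher in leaf than in meristem. Stem exceeded leaf by the largest fold, 191, at the locus on contig 002581F described above, and meristem, 121-fold, at the single-exon locus on contig 010291F. Each of these differences remained at least 4-fold with counts per base of model.

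Most of the 155 loci are spliced. A single exon was found at 15 (9.68%), 2 or 3 exons at 45 and 10 or more at 22, with exon number taken from the model with the most fragments. The median was 5 exons (quartiles 3 and 7.5) and the most was 33, on contig 005453F from 235472 to 255303 (minus strand), where leaf had 1506 CPM, stem 850.5 and meristem 432.6. Among the 3275 loci with a highest level of 100 to 1000 CPM, 8.24% had a single exon, 21.9% had 2 or 3 and 28.8% had 10 or more, with a median of 6. Of the 155 loci, 14.2% had 10 or more exons, below that level class but near the 12.4% over all 33811 loci, of which 26.5% had a single exon. Their median exonic length was 1487 bases (quartiles 1081.5 and 2077.5), against 1798 at 100 to 1000 CPM, 1540 at 10 to 100 CPM and 811 at 1 to 10 CPM. Their introns summed to a median of 990.0 bases, against 1691, 1397.5 and 316. Models of scarce RNAs are pieced together from few reads, so depth moves with these values, and its part was not tested.

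The share of single-exon loci in the abundant RNA of leaf rested on the 2 loci of contig 001375F. The 15 single-exon loci took 4.33% of all leaf fragments, 1.10% of meristem and 0.638% of stem, and 9 of them had their highest level in leaf, with 4 for meristem and 2 for stem. The 45 loci with 2 or 3 exons took 9.17% of leaf, 2.94% of meristem and 4.32% of stem. Of the fragments of the 155 loci, single-exon loci held 15.3% in leaf, against 9.10% in meristem and 4.85% in stem. Without the 2 loci of contig 001375F, which took 3.06% of all leaf fragments, the order of leaf and meristem turned, with 5.06% in leaf, 7.27% in meristem and 3.75% in stem. Loci with 2 or 3 exons held 32.4% in leaf, near the 32.8% in stem and above the 24.3% in meristem. The 73 loci with 4 to 9 exons held 40.0% in leaf, 56.0% in meristem and 50.1% in stem. Fragment counts also grow with the length of an RNA. Per kb of model, the highest level of a locus had a median of 1776 CPM for 1 exon, 1937 for 2 or 3, 946 for 4 to 9 and 623 for 10 or more. Of the 155 loci with the highest level per kb among those with a model in all tissues, 104 are among the 155 described here.

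**Figure D3:**
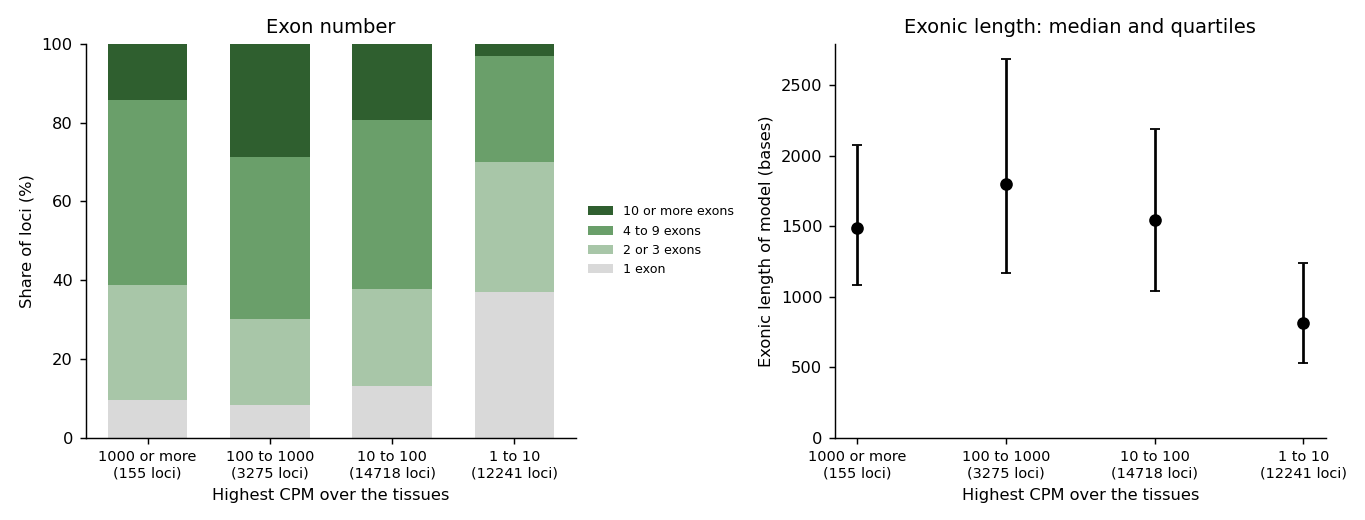
Exon number (left, share of loci in percent) and exonic length of the model with the most fragments (right, bases, median with quartiles) for loci with a model in all tissues, grouped by their highest CPM. At 1000 CPM or more 14.2% of loci had 10 or more exons, against 28.8% at 100 to 1000 CPM, 19.4% at 10 to 100 CPM and 2.99% at 1 to 10 CPM, and the median exonic length was 1487 against 1798 bases at 100 to 1000 CPM.

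Models of the abundant loci were more alike in the 3 tissues than those of less abundant loci. Depth moves with these values too, and its part was not tested. Exon number was the same in all tissues at 125 of 155 loci (80.6%), against 65.2% at 100 to 1000 CPM and 47.8% at 10 to 100 CPM. Of the 140 spliced loci, 98 (70.0%) had the same introns to the base, against 54.4% and 35.5%. The shortest model was a median of 0.940 times as long as the longest, against 0.915 and 0.793. More than 1 model in some tissue was found at 17 loci (11.0%, against 18.6% and 35.8%). Introns over 20 kb were present at 15 of the 140 spliced loci (10.7%), against 3.49% of spliced loci at 100 to 1000 CPM and 2.62% at 10 to 100 CPM. The longest measured 287.4 kb. An intron over 20 kb was in the models of all 3 tissues at 5 of these loci, of 2 tissues at 6 and of 1 tissue at 4. The longest intron itself was in the models of a single tissue at 14 of the 15 loci, and at 9 it was not in the model of the tissue with the highest level. Whether such introns are real or join separate genes was not tested. Without these 15 loci, the shares were 26.5% of leaf, 11.3% of meristem and 11.9% of stem.

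The 155 loci lay on 144 contigs. More than 1 was held by 9 contigs, and 5 loci lay within 50 kb of another. The same counts were not made for other loci, so whether the 155 lie unusually close or far apart was not tested. The shortest gap, 10.6 kb, was on contig 001768F, where 3 loci lie on the minus strand, starting at 290745, 324727 and 339733. The gap between the first and the second of them was 27.8 kb, and 2 loci on contig 000842F were 27.2 kb apart. The 3 loci of contig 001768F were highest in leaf, meristem and leaf, so neighbours did not share a tissue of highest level there, and on 4 of the 9 contigs all did. The loci of those 4 contigs were highest in leaf, as were 74 of the 155 loci. A model on the other strand overlapped 32 of the 155 loci (20.6%, against 13.0% at 100 to 1000 CPM). Those models drew 0.0171 fragments per 100 fragments of the 32 loci in leaf, 0.103 in meristem and 0.294 in stem, and above 1 per 100 at 1, 4 and 4 loci. The highest was 69.5 per 100, in stem on contig 000267F, a locus picked after its values were seen. An overlapping locus with no model in a tissue counts as 0 there, while the divisor keeps all 32 loci. Leaf also had the largest divisor, 12902032 fragments against 2951920 for meristem and 1881151 for stem. These rates thus mix missing models with low counts, so nothing is read from their order over the tissues. Of the 155 loci, 85 lie on the plus strand and 70 on the minus strand.

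Among the 95 loci with at least 2 internal exons, 20 (21.1%) had the same series of internal exon lengths as another locus of any level, a share near the 19.7% at 100 to 1000 CPM and the 21.3% at 10 to 100 CPM. In 6 cases both loci were among the 155. These 6 pairs, picked after their values were seen, are shown because each pair had the same tissue of highest level. The levels also chose the 155 loci, of which 74 were highest in leaf and 44 in stem, so nothing is read from this. The loci on contigs 001329F and 002397F, of leaf ranks 4 and 5, both have internal exons of 120 and 305 bases and last exons of 953 bases, with first exons of 199 and 145. On contig 002182F at 326750 to 330545 and contig 003486F at 55943 to 59678, both on the plus strand, internal exons of 91, 106, 283, 149 and 154 bases went with 2804 and 2319 CPM in leaf, 471.6 and 353.2 in meristem and 566.8 and 446.8 in stem. A pair highest in leaf with 7 internal exons, of 290, 232, 327, 86, 114, 308 and 267 bases, was less alike, with 1405, 463.3 and 194.2 CPM in leaf, meristem and stem on contig 001768F at 290745 to 296904, and 2831, 1687 and 141.4 CPM on contig 007490F between 1370 and 44398. The second of these reached the limit in meristem and the first did not, but its meristem model has 18 exons and an intron of 32.2 kb, against 9 exons in the other tissues.

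The other 3 pairs were highest in stem. Internal exons of 120 and 247 bases were shared by contig 001599F at 44372 to 46997, with 2972 CPM in stem, and contig 002428F at 195337 to 197751, with 1304. Contig 000595F at 747937 to 750857 and contig 002041F at 402037 to 404982 share 6 internal exons, of 122, 116, 74, 265, 132 and 136 bases, and had 1296 and 2407 CPM in stem. Their meristem levels were 201.7 and 280.8 CPM and their leaf levels 231.9 and 258.9 CPM. The last pair, contig 000709F at 874222 to 878304 and contig 001505F at 709788 to 713841, shares internal exons of 472, 56, 131 and 94 bases, and had 2616 and 1615 CPM in stem, 1058 and 611.2 in meristem and 691.0 and 422.0 in leaf. Where listed exons that span an intron were left out first, this pair no longer matched and the other 5 did. By this rule 100 of the 155 loci had at least 2 internal exons, and 18 of them (18.0%) had a match at any level. The share was 19.7% at 100 to 1000 CPM and 22.0% at 10 to 100 CPM. Reads that map to more than 1 place are not counted by featureCounts at its default, so loci that are near-identical copies could be counted too low. Gene copies and alleles kept apart in the assembly cannot be told apart here.

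**Figure D4:**
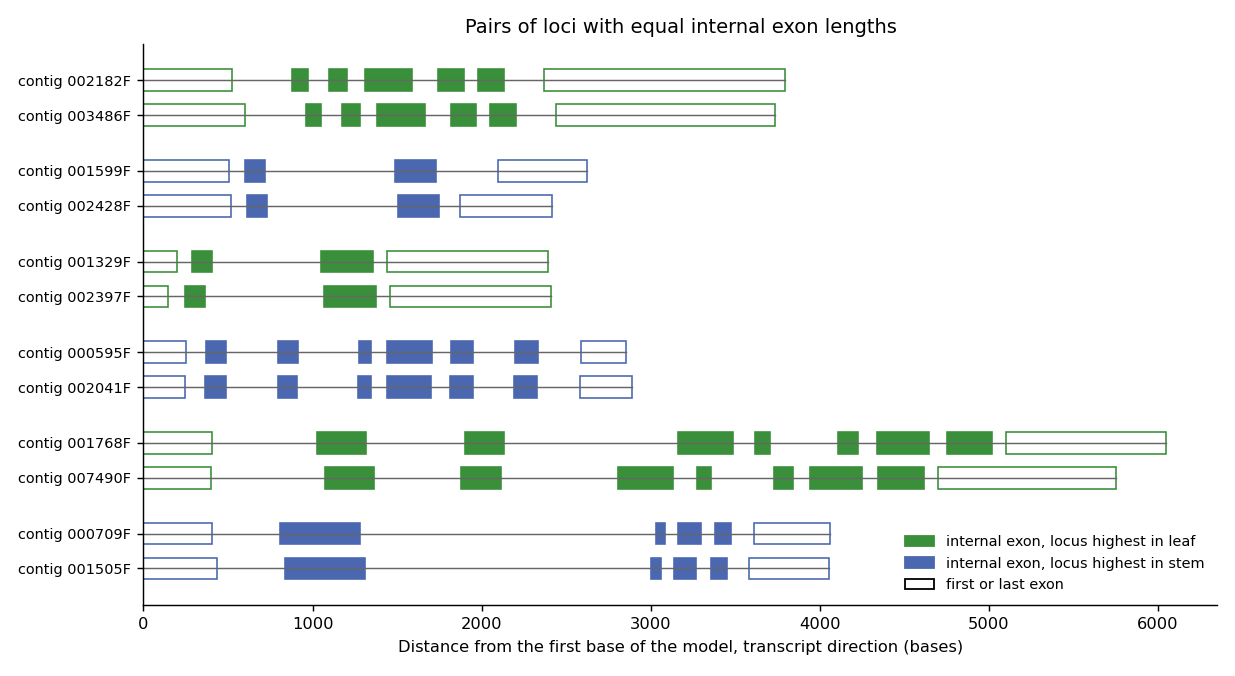
Exon maps, to scale, of the 6 pairs of loci with equal internal exon lengths, drawn in the direction of transcription with distance from the first base of the model in bases (x axis). Filled boxes are internal exons, open boxes first and last exons and lines introns; green loci were highest in leaf and blue loci in stem. Most introns are close in length within a pair. Among those that differ are the last introns of contigs 001599F and 002428F, of 364 and 121 bases, and several between contigs 001768F and 007490F.

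The 155 loci lowered the CPM of all other loci, and most in leaf. With their fragments left out of the total, every other locus had 1.40 times its CPM in leaf, 1.14 times in meristem and 1.15 times in stem, so that 100 CPM became 139.5, 113.8 and 115.2. This is arithmetic of the totals and needs no test. The number of other loci at 10 CPM or more went from 11763 to 13946 in leaf, from 14661 to 15585 in meristem and from 13641 to 14565 in stem. At 1000 CPM or more, 34 further loci appeared in leaf, 10 in meristem and 8 in stem.

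Levels in leaf, compared with other tissues, depended on this. Over the 16012 other loci with 10 CPM in leaf or meristem, the median log2 difference of leaf minus meristem was -0.652 with the totals of all fragments and -0.358 without the 155 loci. Loci at least 4-fold higher in leaf went from 875 (5.46% of those compared) to 1131 (7.06%), and those higher in meristem from 2112 (13.2%) to 1522 (9.51%). Against stem, over 15996 loci, the median went from -0.656 to -0.380, the loci higher in leaf from 1890 (11.8%) to 2215 (13.8%) and those higher in stem from 3013 (18.8%) to 2330 (14.6%). Stem and meristem changed little. Over 17183 loci the median went from -0.025 to -0.007, the loci higher in stem from 1535 (8.93%) to 1556 (9.06%) and those higher in meristem from 2322 (13.5%) to 2303 (13.4%). The shift was 0.294 for leaf and meristem and 0.276 for leaf and stem. TMM factors shifted the same loci by 0.623 and 0.570, so leaving out the 155 loci gave 47.2% and 48.4% of the TMM shift. With TMM, 1522 loci (9.51%) were higher in leaf than in meristem and 1104 (6.89%) in meristem. Leaf exceeded stem at 2602 (16.3%) and stem leaf at 1813 (11.3%), and stem exceeded meristem at 1593 (9.27%) and meristem stem at 2246 (13.1%).

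TMM scaling itself was hardly touched by the 155 loci. This follows largely from its construction, since its factors come from the bulk of loci, and nothing is read from it. Estimated without them, on totals without them, it gave medians of -0.027 for leaf minus meristem and -0.081 for leaf minus stem, against -0.029 and -0.086 with them. The leaf factor changed from 0.759 to 0.865, as the totals it corrects changed. Over a fixed set of 14718 loci with a highest level of 10 to 100 CPM, the median of leaf minus meristem was -0.671 with all fragments, -0.597 without the 4 loci at 10000 CPM or more, -0.377 without the 155 and -0.198 without all 3430 loci at 100 CPM or more. The last steps approach 0 in part by construction, since the fixed set then makes up most of the remaining total. The loci at 100 to 1000 CPM took 42.2% of leaf, against 47.0% of meristem and 46.7% of stem, and those at 10 to 100 CPM 26.4%, 35.8% and 35.4%.

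**Figure D5:**
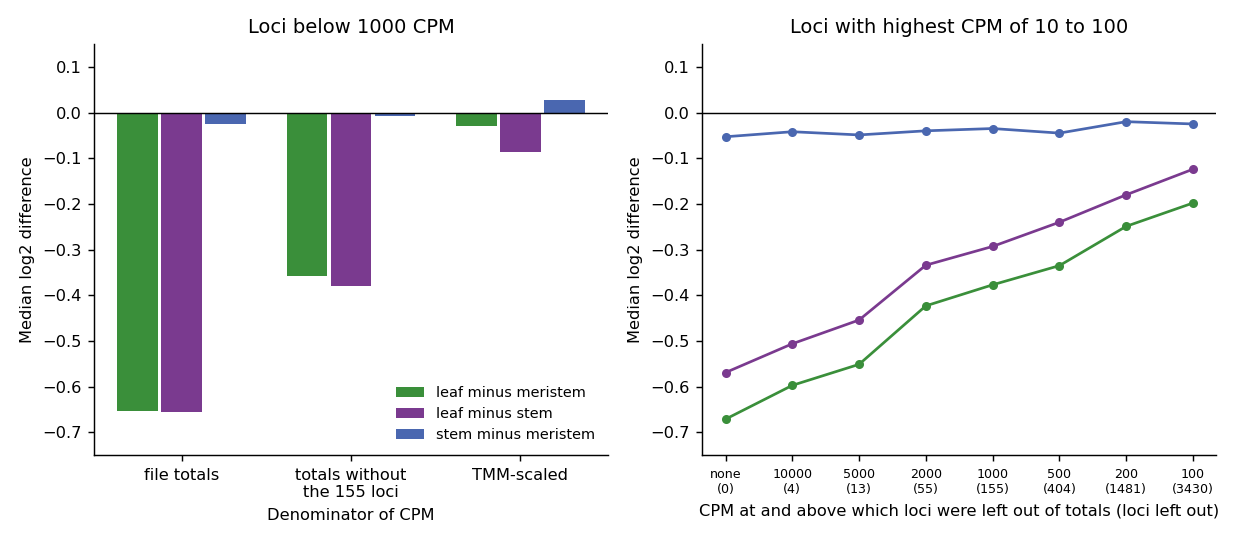
Median log2 difference between tissues (y axes) of loci outside the 155. Left, loci below 1000 CPM with CPM from the file totals, from totals without the 155 loci and after TMM scaling. Right, loci with a highest level of 10 to 100 CPM when loci at or above a falling CPM (x axis, with the number of loci) were left out of the totals. Both comparisons with leaf move towards 0, from -0.671 to -0.198 for leaf minus meristem, and stem minus meristem stays near 0.

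The limit of 1000 CPM cuts through a continuous range. Between 900 and 1000 CPM there were 21 loci and between 1000 and 1100 CPM 14. Just inside were loci on contig 000384F (666035 to 750758, plus strand) with 1022.9 CPM in stem and on contig 001726F (481185 to 491471, plus strand) with 1037 CPM in stem. Just outside were loci on contig 002298F (542217 to 544198, plus strand) with 995.1 CPM in leaf and on contig 000011F (2134884 to 2136716, minus strand) with 987.0 CPM in meristem.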

How the data were processed

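The deposited tables come, per the file headers, from featureCounts 1.6.3, run on paired reads with strand setting 1 against models built for each tissue on a masked and deduplicated Cascade assembly. Their values are raw fragment counts as the authors deposited them. HISAT2 2.1.0 and StringTie 1.3.3b are named in the submitters' processing notes. The genome build and whether the kit marked the strand are not given in the sources used here. The exonic length of each model was taken from the deposited tables.

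Models of 1 strand with 1 or more exonic bases in common were joined into loci and their counts summed. Unscaled CPM used the total of each table. TMM factors (0.759 leaf, 1.17 meristem, 1.13 stem) came from edgeR 4.0.16 in R 4.3.3 on 33671 loci past its low-count filter, and edgeR was used for these factors only. A difference of 4-fold needed 10 scaled CPM in the higher tissue. Overlapping exons of a model were merged. With 1 column per tissue no replicate test was possible. The steps were tested on simulated data. Python 3.11.15, pandas 2.3.3, numpy 2.4.6, scipy 1.17.1 and matplotlib 3.10.9 were used. The loci, lists and settings were chosen with earlier results of these data known. Loci were named as the 5 highest per tissue, the largest fold per direction, the highest single-exon locus per tissue, the locus with the most exons and those nearest the limit; others are marked as picked after seeing their values. Alternatives were other limits, scaling, joining, exon rules and denominators.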

Additional observations from a re-analysis of the deposited data

How the results depend on the processing

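No paired analysis was possible because each tissue has 1 column without a replicate number. Tests over 6 samples, DESeq2 and leaving out each replicate could not be run for that reason. The number of abundant loci stayed within 1.5 times the 155 under TMM and RLE scaling, joining by span, 1 model per table, no need for a model in every table, no overlap on the other strand, counts per base of model, and no intron over 20 kb (chosen after seeing the data). TMM scaling gave 171 loci and counts per base 179, of which 142 and 114 are among the 155. A limit of 500 CPM gave 404 loci, with 111 in 2 or more tissues, 38 in all, 207 in leaf, 170 in meristem and 176 in stem. A limit of 2000 CPM gave 55, with 2, 1, 42, 6 and 10.

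Shares are listed as leaf, meristem and stem. They were 37.87%, 21.57% and 21.97% at 500 CPM, 20.3%, 5.349% and 6.202% at 2000 CPM, 30.43%, 12.04% and 12.84% with TMM, 30.5%, 12.06% and 12.87% with RLE, 25.54%, 11.09% and 11.96% with 1 model per table, 20.37%, 9.928% and 11.67% without overlap on the other strand, 26.93%, 11.66% and 12.24% per base, and 26.47%, 11.31% and 11.91% without introns over 20 kb. Leaf had the largest share under each. Under TMM and RLE 36 loci, not 53, reached the limit in meristem, and 125 and 126, not 86, in leaf; these settings multiply leaf levels. The median exonic length was 1537 bases with the longest model. A fold of 2 gave 18 loci higher in meristem than leaf, 36 in stem than leaf and 51 in meristem than stem; the other counts of differences stayed within 1.5 times. For loci outside the 155, TMM and TMM without the 155 loci gave medians of -0.029 and -0.027 for leaf minus meristem and -0.086 and -0.081 for leaf minus stem, against -0.358 and -0.380 with totals without the 155. They gave 1522 and 1526 loci higher in leaf than meristem, 1104 and 1103 in meristem, and 1813 and 1806 in stem than leaf. Of 280 alternative values of differences at 19 named loci, no difference of 4-fold or more changed sign (0 values). Below 4-fold, 5 values at 4 loci changed sign, none beyond 0.48 on the log2 scale. With unscaled CPM, leaf minus meristem went from 0.15 to -0.48 at contig 000113F, from 0.36 to -0.26 at contig 005266F and from 0.43 to -0.19 at contig 000478F. With totals without the 155 it was -0.18 at contig 000113F, and per base stem minus meristem went from -0.05 to 0.02 at 494805 on contig 001375F. Differences fell below 4-fold in 3 cases, at contig 005789F (leaf over stem, with unscaled CPM and with totals without the 155) and contig 005453F (leaf over meristem, with unscaled CPM). They passed 4-fold in 3 others, at contig 003132F (leaf minus meristem, -1.67 to -2.29 with unscaled CPM) and contig 005160F (leaf minus stem, -1.82 to -2.39 with unscaled CPM and -2.11 with totals without the 155). Leaving out the 2 loci of contig 001375F turned the order of leaf and meristem in the single-exon share. They were chosen for their leaf counts after seeing the data.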
